A study of Mus musculus with 20 samples.

Results

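The receptors through which thymic intraepithelial lymphocyte precursors (IELPs) can sense interleukin 2 (IL-2) and its relatives were followed as transcripts in single sorted cells. The members were 9 genes, taken as a list of names out of 25246 counted genes: Il2rg, Il2rb, Il2ra, Il15ra, Il7r, Il4ra, Il21r, Il6st and Ifngr1. The first 7 encode chains of the common gamma chain family. The other 2 do not belong to that family, since Il6st encodes gp130, the shared chain of the IL-6 family, and Ifngr1 encodes the ligand-binding chain of the interferon-gamma receptor. Members were looked up by gene name in every library.

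The common gamma chain, encoded by Il2rg, is paired with a private chain that sets which cytokine is bound: Il7r for IL-7, Il4ra for IL-4 and Il21r for IL-21. Il2rb encodes CD122, which with the common gamma chain makes the receptor for IL-2 and IL-15, while Il2ra (CD25) and Il15ra raise the affinity for either cytokine. These receptors signal through JAK1 and JAK3 to STAT proteins. In the thymus, IL-7 keeps early T cell progenitors alive, and IL-15 is known for its part in the development of natural intraepithelial lymphocytes, the T cells that these precursors give rise to in the gut.

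Cells came from the thymus of mice of 3 genotypes on a C57BL/6 background, all carrying the TBGR transgene, a reporter in which Tbx21 (T-bet) control elements drive the green protein ZsGreen. CD4 and CD8 bearing thymocytes were depleted and TCRb+ cells were sorted singly. The GEO text describes the gate as NK1.1+ whereas the study's methods describe it as NK1.1-. In the 4-week-old TBGR mouse, otherwise wild type, a CD122-T-bet- gate and 3 gates of CD122+ cells, which were T-bet-, T-bet int or T-bet high, filled 2 libraries of 96 cells each. In the 2-week-old TBGR C-myc fl/fl mouse, a littermate control whose C-myc alleles are flanked by loxP sites, 4 libraries held both T-bet- gates and 4 held the T-bet int and high gates. In the 2-week-old TBGR C-myc D/D Cd4 mouse, in which Cre driven by Cd4 elements deletes C-myc from the stage at which thymocytes express Cd4, each T-bet- gate filled 2 libraries. The GEO text speaks of a single mouse per sort and the study's text of mice, and no label ties a library to an animal. Each genotype was therefore treated as 1 sample, named below as a mouse after the GEO text, and no test between conditions was made, since spread between libraries may be technical. Intervals below are exact 95% limits that cover counting error only. Age, genotype, mouse and library set cannot be told apart between the TBGR mouse and the 2-week-old mice. Between the C-myc fl/fl and C-myc D/D Cd4 mice, the same holds for genotype, mouse and library set.

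Of 1920 cells, 1413 held at least 2000 transcripts, namely 678 from the TBGR mouse, 470 from the C-myc fl/fl mouse and 265 from the C-myc D/D Cd4 mouse. The median depth per library ran from 3298 to 7809.5 transcripts per cell, and each cell barcode served 10 libraries. Levels were given as CPM, a gene's transcripts per 1000000 transcripts summed over the cells of a gate, and 3 transcripts, the limit that a count of 0 allows, equalled 2.04 to 4.29 CPM per gate. Within a single library of a gate, 3 transcripts equalled 3.87 to 31.8 CPM. Alpha-beta T cell markers were present throughout, at 3612 to 6743 CPM for 6 genes, none at 0. Klrb1c, which encodes NK1.1, stood at 563 CPM in TBGR T-bet high cells, at 81.5 CPM in their C-myc fl/fl counterparts and at 0 to 39.5 CPM in the other gates. Myc stood at 24.8 and 25.1 CPM in the CD122- and CD122+ cells of the C-myc D/D Cd4 mouse against 42.0 and 99.0 CPM in the C-myc fl/fl mouse, a check limited by the 3′ tag, which may lie outside the deleted part.

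The members differed widely in abundance. Il2rg was detected most, with 5037 transcripts in 1194 cells, followed by Il2rb with 2085 transcripts, Il7r with 1976 and Il6st with 1456. Ifngr1 gave 973 transcripts, Il21r 644, Il4ra 324 and Il2ra 146. Il15ra gave 46 transcripts in 42 cells, at 1.31 to 12.8 CPM per gate, and fell under the minimum of 20 transcripts in all 9 comparisons. In GRCm38 the genes lie on 6 chromosomes: Il2rb and Il7r on chromosome 15 (78479256 to 78495271 and 9505788 to 9530176, both minus strand), Il2ra and Il15ra on chromosome 2 (11642807 to 11693193 and 11705290 to 11734317, plus strand), Il4ra and Il21r on chromosome 7 (125552120 to 125579474 and 125603429 to 125633570, plus strand), Il2rg on X (101264378 to 101268255, minus strand), Il6st on 13 (112464070 to 112510086, plus strand) and Ifngr1 on 10 (19591949 to 19610229, plus strand). A gene model on the same strand overlaps Il2rg (Gm20489) and another overlaps Il2ra (Gm37881), so reads of these genes could be shared with them.

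**Figure D1:**
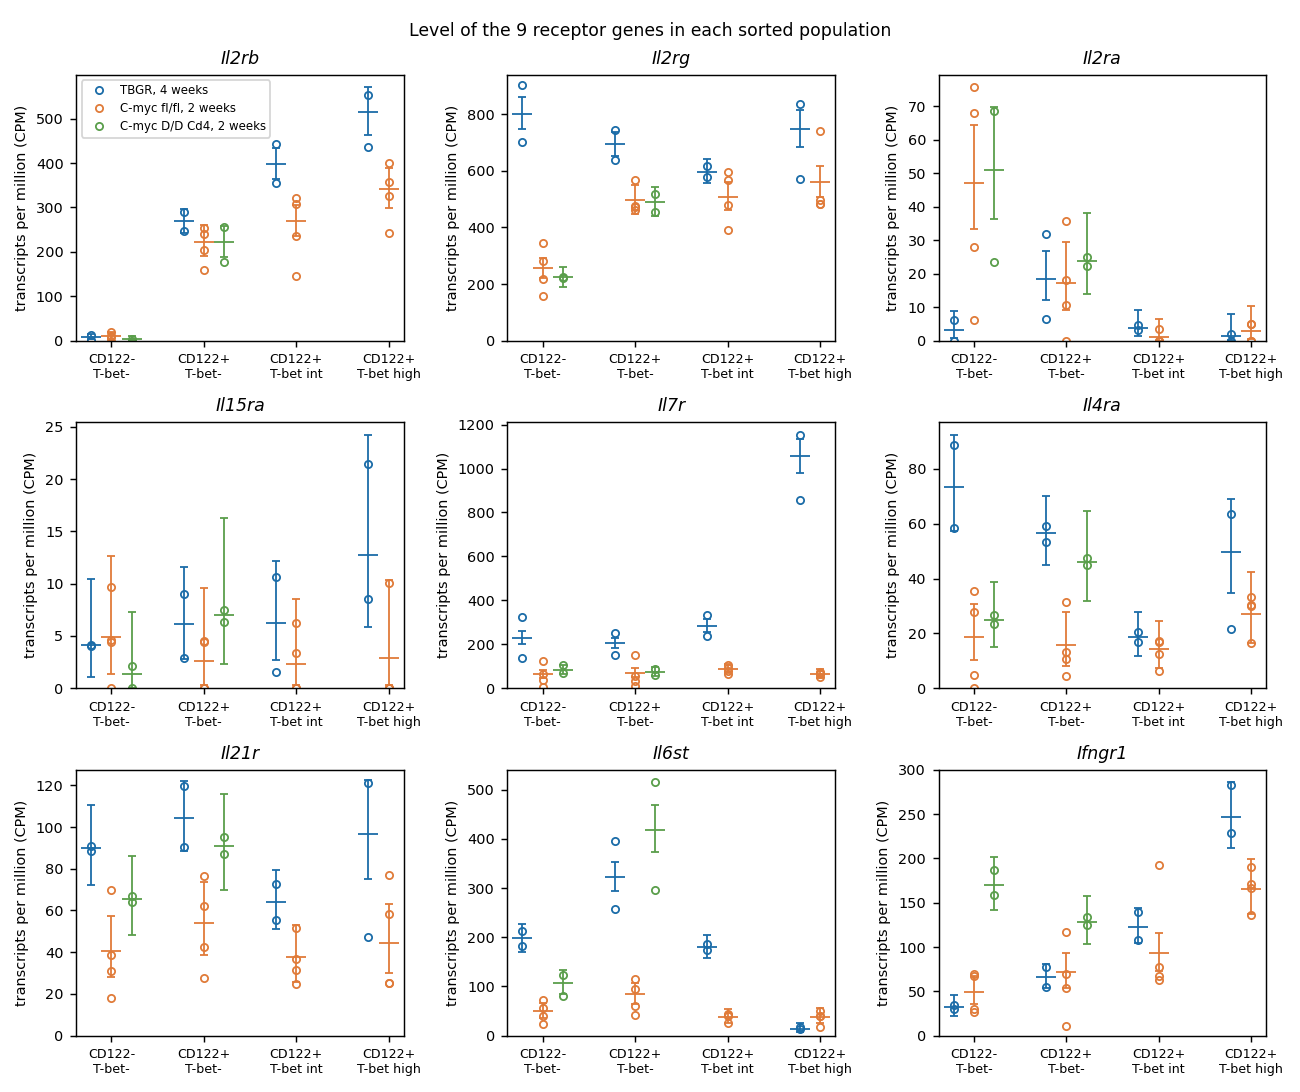
Transcripts of each of the 9 genes in CPM (vertical axis) by sorted gate and mouse (horizontal axis); points are libraries, and the dash with its bar is the gate's pooled level with its 95% counting interval. Il7r stands apart in TBGR T-bet high cells at 1056 CPM, where Il6st is at 14.2 CPM, while the C-myc fl/fl T-bet high cells show 64.3 CPM of Il7r and 38.6 CPM of Il6st.

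The first comparison asked how receptor transcripts differed, in the TBGR mouse, between T-bet- cells with and without CD122 on their surface. A gene was called when both gates together held at least 20 transcripts, the levels differed at least 2-fold (1 on the log2 scale, with 0.5 transcripts added) and no library of either gate overlapped the other gate. Of 8 members tested, 3 were called higher in CD122+T-bet- cells, Il2rb, Il2ra and Ifngr1, where 14.3% of the 9262 genes tested were called higher. None was called lower, where 3.92% of genes were. The median log2 ratio over all genes tested was 0.26, and because the gates of this mouse filled separate libraries, gate and library cannot be told apart.

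Il2rb encodes the protein used for sorting, and its difference between these gates is therefore no finding. Its libraries stood at 12.4 and 2.01 CPM in the CD122- gate and at 289 and 247 CPM in the CD122+T-bet- gate. All libraries of the first gate were far below those of the second, as the sort requires. With every cell thinned to 2000 transcripts, Il2rb was found in 41.4% of CD122+T-bet- cells and in 1.72% of CD122- cells.

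Il2rg, the shared chain, was about as high in both gates of the TBGR mouse. The CD122- libraries stood at 903 and 703 CPM and the CD122+T-bet- libraries at 746 and 639 CPM. The gates overlapped, and the log2 ratio was -0.21. Il2rg had the most transcripts of the members in CD122- cells and was found in 78.7% of them after thinning.

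Il2ra, the CD25 chain, was scarce. It stood at 6.20 and 0 CPM in the CD122- libraries and at 6.45 and 31.7 CPM in the CD122+T-bet- libraries, with 3 and 27 transcripts in all. The lower CD122+T-bet- library was barely above the higher CD122- library. Il2ra was called higher (log2 ratio 2.39, interval 0.89 to 4.95), but without the second CD122+T-bet- library the ratio was 0.99 and the call was lost. This call held in 8 of 12 settings, and was also lost with thinning, means over cells and median-of-ratios scaling. The regulatory T cell list of 6 genes, which includes Il2ra, summed to 181 CPM (libraries 131 to 232) in CD122- and to 221 CPM (134 to 317) in CD122+T-bet- cells, with no gene at 0 and overlapping libraries. Among its 6 genes tested, 1 was called higher, Il2ra itself, and 1 lower, Tnfrsf4 (median log2 ratio 0.15). Foxp3 stood at 17.3 and 58.5 CPM and was not called. The part of the list genes in the Il2ra difference was not tested.

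Among the private chains, Il7r stood at 322 and 139 CPM in CD122- libraries and at 253 and 150 CPM in CD122+T-bet- libraries. Il4ra stood at 88.9 and 58.4 CPM against 59.3 and 53.3 CPM, and Il21r at 91.0 and 88.6 CPM against 90.3 and 119.6 CPM. None of these 3 genes met the call rule, with log2 ratios of -0.17, -0.38 and 0.21.

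Outside the family, Il6st stood at 182 and 213 CPM in the CD122- libraries and at 257 and 395 CPM in the CD122+T-bet- libraries. The libraries of the gates did not overlap, but the log2 ratio of 0.70 (0.46 to 0.95) stayed under the 2-fold minimum. Ifngr1 stood at 35.1 and 30.2 CPM against 55.5 and 77.8 CPM, and rose just 2.00-fold (log2 interval 0.43 to 1.64). This call rested on the threshold: it held in 6 of 12 alternative settings, and with every cell thinned the log2 ratio was -0.19. The 6 include a Kcnq1ot1 limit that removed 0 cells and so could not end the call. Leaving out CD122+T-bet- library 2 (0.76) or CD122- library 2 (0.88) ended it, as did scaling by the median of ratios (0.72).

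When T-bet int cells were set against CD122+T-bet- cells in the TBGR mouse, Il2ra and Il4ra fell. No member was called higher, where 3.49% of 9461 genes were, and 2 of 8 were called lower, where 6.94% of genes were. Il4ra, the private IL-4 chain, went from 59.3 and 53.3 CPM to 16.7 and 20.6 CPM. All T-bet int libraries were below all CD122+T-bet- libraries, a 3.0-fold fall (log2 ratio -1.58, -2.33 to -0.94), although with every cell thinned the ratio was -0.64 and not called. Il2ra went from 6.45 and 31.7 CPM to 3.03 and 4.74 CPM (log2 ratio -2.14, -3.98 to -0.85), and without the second CD122+T-bet- library the ratio was -0.74 and the call was lost. The Il2ra call held in 9 of 12 settings, and was also lost with thinning and with means over cells.

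The remaining members moved by less than 2-fold at this step, several with libraries that did not overlap. Il2rb went from 289 and 247 CPM to 355 and 443 CPM (log2 ratio 0.56, 0.37 to 0.76), within gates that were both sorted as CD122+. Il6st went from 257 and 395 CPM to 174 and 187 CPM (-0.84, -1.07 to -0.61), and was called lower without CD122+T-bet- library 1 (-1.13). The T-bet int libraries were higher for Il2rb and lower for Il6st than every CD122+T-bet- library. Ifngr1 went from 55.5 and 77.8 CPM to 108 and 139 CPM, again without overlap (0.89, 0.52 to 1.28), and was called when CD122+T-bet- library 2 (1.14) or T-bet int library 1 (1.08) was left out, with means over cells (1.11) and with every cell thinned (2.09). Il21r (-0.69) and Il2rg (-0.22) were lower in both T-bet int libraries, and Il7r (0.48) overlapped.

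When T-bet high cells were set against T-bet int cells in the TBGR mouse, Il7r, Il4ra and Ifngr1 rose and Il6st fell. Of 7 members tested, 3 were called higher, where 7.93% of 8564 genes were, and 1 was called lower, where 11.7% of genes were. The T-bet high gate had the fewest cells, 147, with libraries of 92 and 55 cells.

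Il7r, the private chain of the IL-7 receptor, stood at 239 and 332 CPM in the T-bet int libraries and at 1154 and 857 CPM in the T-bet high libraries. Every T-bet high library was above every other TBGR library. The pooled levels were 285 CPM (256 to 315) and 1056 CPM (981 to 1134), a 3.70-fold rise (log2 ratio 1.89, 1.71 to 2.07) that was called in all 12 alternative settings, from 1.59 to 2.14. After thinning, Il7r was found in 84.4% of T-bet high cells (77.5 to 89.8), against 34.5% of T-bet int, 17.7% of CD122+T-bet- and 27.0% of CD122- cells. Unthinned, the shares were 93.2%, 51.5%, 40.9% and 49.4% in the same order.

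The way Il7r was spread over cells also differed. In CD122+T-bet- cells the 10% of cells with the most Il7r held 71.0% of its transcripts, with up to 31 in a single cell. In T-bet high cells the top 10% held 27.2%, with up to 23. The variance of the Il7r count was 9.85 times its mean in CD122+T-bet- cells and 3.27 times in T-bet high cells, so Il7r was held by a minority of cells in the first gate and by most cells in the second.

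Il6st, the gp130 chain, stood at 174 and 187 CPM in the T-bet int libraries and at 12.7 and 17.1 CPM in the T-bet high libraries. All T-bet high libraries lay below all other TBGR libraries. The fall was 12.1-fold (log2 ratio -3.60, -4.75 to -2.76) and was called in all 12 settings, from -3.79 to -3.23. Thinned shares were 37.4% of T-bet int and 4.08% of T-bet high cells. Il6ra, the IL-6 binding chain that partners gp130, stood at 38.8, 12.3, 12.4 and 4.26 CPM from the CD122- to the T-bet high gate.

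Ifngr1 stood at 108 and 139 CPM in the T-bet int libraries and at 229 and 283 CPM in the T-bet high libraries. These libraries did not overlap, and Ifngr1 rose 2.01-fold (log2 interval 0.69 to 1.32), a value at the threshold that was called in 7 of 12 settings. Without T-bet high library 2 it was 0.90, without T-bet int library 1 it was 0.82 and after thinning it was 0.54. Over the 4 TBGR gates in order, Ifngr1 levels were 32.6, 66.0, 123 and 247 CPM. Ifngr2, the second chain of the interferon-gamma receptor, had the opposite order, at 90.8, 58.5, 11.6 and 1.42 CPM, with no overlap between its T-bet int libraries (4.55 and 19.0 CPM) and those of either T-bet- gate (103 and 78.5, 59.3 and 57.7 CPM).

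Il4ra stood at 16.7 and 20.6 CPM in T-bet int libraries and at 63.6 and 21.4 CPM in T-bet high libraries. The lower T-bet high library was just above the higher T-bet int library. It was called higher (log2 ratio 1.41, 0.63 to 2.23), but without T-bet high library 1 the ratio was 0.31 and the call was lost. It held in 7 of 12 settings and was also lost after thinning (0.49). The chains Il2rb (0.37), Il2rg (0.32) and Il21r (0.59) overlapped between these gates. For all 3, T-bet high library 1 was higher than library 2, with 554 and 437 CPM of Il2rb, 836 and 570 CPM of Il2rg and 120.9 and 47.1 CPM of Il21r.

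Marker lists moved with the T-bet high gate. The summed level of 6 genes of mature T-bet+ IELPs was 5982 CPM (libraries 4785 to 6574) against 758 CPM (661 to 860) in T-bet int cells, with no gene at 0. The 5 genes of NKT cells summed to 1586 CPM against 469 CPM, and 5 genes of agonist-selected IELPs to 223 CPM against 1431 CPM. The mature IELP and NKT lists both include Tbx21, which the reporter gate selects, so part of each rise was set by the sort. The 7 genes of DN2 and DN3 thymocytes, which include Il2ra, ran from 6.36 to 253 CPM between the T-bet high libraries. Only 2 of them could be tested against T-bet int cells, with Rag1 called higher and Hes1 lower. Il2ra itself gave 1 transcript in T-bet high cells. The part of these lists in the receptor differences was not tested.

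**Figure D2:**
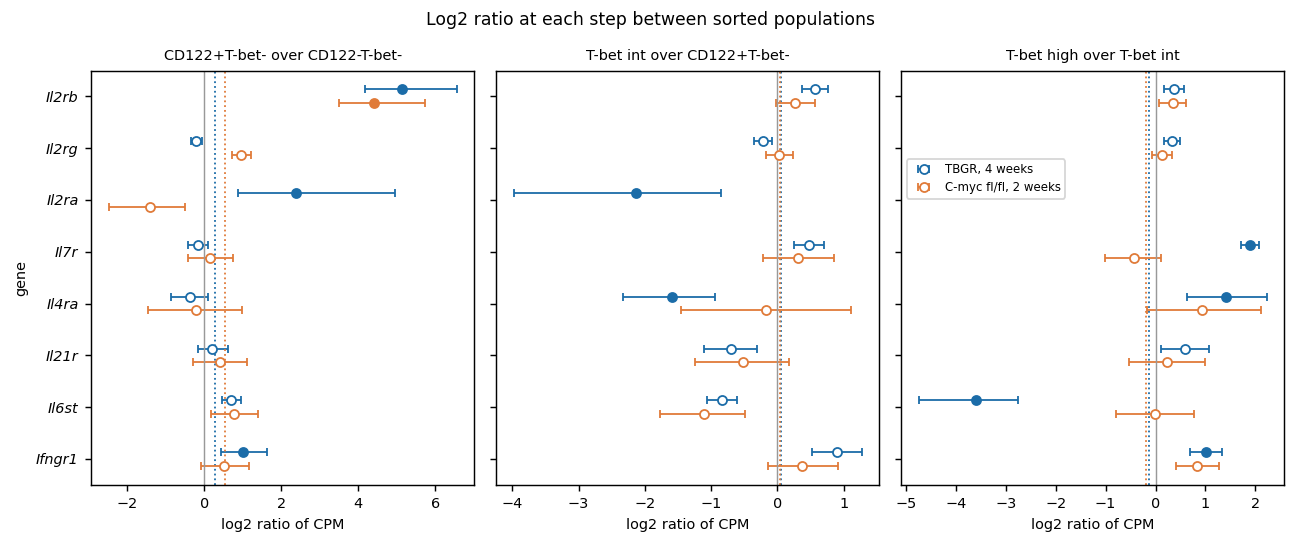
Log2 ratio (horizontal axis) of each member tested at 3 successive gate steps, in the TBGR mouse (blue) and the C-myc fl/fl mouse (orange), with 95% counting intervals; filled points met the call rule and dotted lines mark the all-gene medians. At the step from T-bet int to T-bet high, Il7r lies at 1.89 and Il6st at -3.60 in the TBGR mouse, while in the C-myc fl/fl mouse Il7r lies at -0.43 and the interval of Il6st runs from -0.80 to 0.77.

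Promoter sequence is shown for Il7r, Il6st and Ifngr1, the members called at the T-bet high step whose libraries stood apart from all other TBGR libraries. Windows of 250 bases before to 50 bases after the gene start were taken from RefSeq on GRCm38.p6. They were found for 8 of 9 members, in 9 windows, with no entry for Il2rb. Each was searched on both strands for the letters TTCNNNGAA (the GAS element bound by STAT proteins, in 8.30% of all 32851 windows), GGTGTGA (a T-box site, 3.98%), CACGTG (an E-box bound by Myc, 7.15%), CCGGAAG (an Ets site, 8.86%), GTAAACA (a Foxo site, 3.65%) and TGTGGTT (a Runx site, 5.27%). Below are the 250 bases before each start, 5′ to 3′ on the gene's own strand, with capitals where such letters were found. Il7r spans chr15:9529877-9530126 (minus strand), Il6st chr13:112463820-112464069 (plus) and Ifngr1 chr10:19591699-19591948 (plus).
Il7r: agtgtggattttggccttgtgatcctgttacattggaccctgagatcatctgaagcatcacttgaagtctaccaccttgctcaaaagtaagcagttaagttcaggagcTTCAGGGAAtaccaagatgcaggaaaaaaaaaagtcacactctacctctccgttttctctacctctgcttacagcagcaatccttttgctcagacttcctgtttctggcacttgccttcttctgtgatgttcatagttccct
Il6st: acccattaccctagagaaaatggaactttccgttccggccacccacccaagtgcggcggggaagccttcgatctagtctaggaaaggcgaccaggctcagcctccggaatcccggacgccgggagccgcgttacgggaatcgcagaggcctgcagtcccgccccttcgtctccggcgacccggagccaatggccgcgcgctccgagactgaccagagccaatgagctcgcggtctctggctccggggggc
Ifngr1: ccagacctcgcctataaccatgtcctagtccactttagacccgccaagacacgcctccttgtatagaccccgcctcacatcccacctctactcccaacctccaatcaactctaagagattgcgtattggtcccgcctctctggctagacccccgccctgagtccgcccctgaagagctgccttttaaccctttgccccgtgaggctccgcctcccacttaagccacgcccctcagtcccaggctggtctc
The Il7r window held a GAS match at bases 109 to 117 (TTCAGGGAA, in capitals) and a Runx match at bases 254 to 260, after the start and not shown. The Il6st and Ifngr1 windows held none of the 6 motifs. Among the others, Il2rg held an Ets match at bases 234 to 240, Il15ra an Ets match at bases 147 to 153 and Il21r a Foxo match at bases 213 to 219, and Il2ra and Il4ra held none. A match of letters is a description of the sequence, not evidence that a factor binds there.

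In the C-myc fl/fl mouse each pair of gates was sorted into the same libraries, so the gates could be compared within a library. The no-overlap rule was harder to meet here, with 4 libraries of 22 to 35 cells per gate. In the TBGR mouse each gate had 2 libraries of 55 to 94 cells. Numbers of members called are therefore not comparable between these mice. From CD122- to CD122+T-bet- cells, 1 of 8 members, Il2rb, was called higher, where 5.39% of 6790 genes were, and none lower, where 0.928% were. Il2rb, again the sort marker, stood at 0 to 19.4 CPM and at 159 to 254 CPM in the 4 libraries of either gate. Il2rg stood at 281, 344, 218 and 159 CPM in CD122- cells and at 567, 463, 474 and 477 CPM in CD122+T-bet- cells. All CD122+T-bet- values were above all CD122- values, and within each of the 4 libraries Il2rg was higher in CD122+T-bet- cells (log2 ratio 0.43 to 1.58). The pooled log2 ratio was 0.96 (0.71 to 1.21), just under the call rule, beside a median of 0.48 over all genes tested, and without library 2 it was 1.19 and met the rule.

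The remaining members overlapped between these gates. Il7r stood at 38.8, 65.1, 124.5 and 6.10 CPM in CD122- cells and at 152, 31.2, 54.1 and 10.6 CPM in CD122+T-bet- cells. Its values varied more between libraries of a gate than between the gates. Il6st (log2 ratio 0.77, higher in 3 of 4 libraries), Ifngr1 (0.53, higher in 2 of 4), Il21r (0.41) and Il4ra (-0.21) were not called. Il2ra stood at 67.9, 27.9, 75.6 and 6.10 CPM in CD122- cells and at 0, 35.6, 18.04 and 10.6 CPM in CD122+T-bet- cells, with a pooled log2 ratio of -1.42 and overlapping libraries.

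These cells came from different libraries for the next step. From CD122+T-bet- to T-bet int cells of the C-myc fl/fl mouse, no member was called, where 0.562% of 7119 genes were called higher and 0.506% lower. Il6st had the largest difference in size among the 7 members tested, at 59.9, 116, 94.7 and 42.4 CPM against 42.9, 40.2, 24.9 and 44.3 CPM (log2 ratio -1.11, -1.78 to -0.50). The lowest CD122+T-bet- library lay below the highest T-bet int library, and without that CD122+T-bet- library, number 4, Il6st was called lower (-1.21). Without CD122+T-bet- library 1, Il7r was called higher (1.21, against a pooled 0.31).

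From T-bet int to T-bet high cells of the C-myc fl/fl mouse, 0 of 7 members were called, where 1.36% of 6908 genes were called higher and 2.58% lower. Il7r stood at 77.2, 104, 93.3 and 63.3 CPM in T-bet int cells and at 65.5, 70.2, 49.5 and 75.1 CPM in T-bet high cells, so the gates overlapped (log2 ratio -0.43, -1.0 to 0.12). It was higher in T-bet high cells in 1 of 4 libraries. Il6st stood at 38.8 CPM and 38.6 CPM in the pooled gates (interval of the log2 ratio -0.80 to 0.77). Ifngr1 stood at 77.2, 67.0, 193 and 63.3 CPM against 136, 190, 171 and 167 CPM (0.83, 0.41 to 1.27). A single T-bet int library, number 3, overlapped the T-bet high libraries, and without this library 3 both Ifngr1 (1.23) and Il4ra (1.07) were called higher. Il4ra was higher in T-bet high cells in 4 of 4 libraries (0.31 to 1.98), on 19 transcripts against 12 in all.

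Set side by side, T-bet high cells held 1056 CPM of Il7r in the TBGR mouse and 64.3 CPM in the C-myc fl/fl mouse, and 515 and 342 CPM of Il2rb. Il6st stood at 14.2 and 38.6 CPM and Ifngr1 at 247 and 166 CPM. The 6 genes of mature T-bet+ IELPs summed to 5982 and 2997 CPM, and Klrb1c stood at 563 CPM (libraries 613 and 463) and 81.5 CPM (50.1 to 116). All TBGR cells of this gate came from the 4-week-old mouse, so age, genotype, mouse and library set cannot be told apart.

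The C-myc D/D Cd4 mouse was compared with the C-myc fl/fl mouse of the same age. Genotype, mouse and library set cannot be told apart between these mice, in either gate. In CD122-T-bet- cells, Ifngr1 and Il6st were higher in the mouse with deleted C-myc. Of 7 members tested, 2 were called higher, where 12.9% of 6893 genes were, and none lower, where 1.0% were. Ifngr1 stood at 67.9, 69.8, 26.7 and 30.5 CPM in the C-myc fl/fl libraries and at 187 and 159 CPM in the C-myc D/D Cd4 libraries. Both were far above all 4, and the pooled level rose 3.41-fold (log2 ratio 1.77, 1.26 to 2.33), beside a median of 0.45 over all genes tested. This call held in all 14 settings (1.32 to 1.99).

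Il6st stood at 72.7, 55.8, 40.0 and 24.4 CPM against 80.3 and 124 CPM in these CD122- cells. The groups did not overlap, but the lower C-myc D/D Cd4 library was close to the highest C-myc fl/fl library. Il6st rose 2.16-fold (log2 ratio 1.11, 0.56 to 1.70), a call kept in 9 of 14 settings and lost without C-myc fl/fl library 4 (0.93) or C-myc D/D Cd4 CD122- library 2 (0.71) and with median-of-ratios scaling (0.66). The gamma-delta T cell list of 5 genes summed to 1070 CPM (1005 to 1171) in the C-myc D/D Cd4 gate and to 622 CPM (178 to 1222) in the C-myc fl/fl gate, with overlapping libraries. The libraries did not overlap for the DN2 and DN3 list of 7 genes, at 482 CPM (462 to 495) and 260 CPM (83.7 to 393), for the double positive thymocyte list of 8 genes, at 705 CPM (611 to 853) and 338 CPM (251 to 445), or for the NKT list of 5 genes, at 445 CPM (395 to 478) and 195 CPM (133 to 242). In the NKT list, 1 gene held enough transcripts to be tested, Gata3, which was called higher, and Klrb1c was at 0 in the C-myc D/D Cd4 gate. The part of these lists in the differences was not tested.

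Among CD122+T-bet- cells of these mice, Il6st and Il4ra rose. Of 8 members tested, 2 were called higher, where 13.5% of 7312 genes were, and none lower, where 6.13% were. Il6st stood at 59.9, 116, 94.7 and 42.4 CPM in the C-myc fl/fl libraries and at 295 and 515 CPM in the C-myc D/D Cd4 libraries. Its pooled level rose from 84.5 CPM (65.1 to 108) to 419 CPM (373 to 469), a log2 ratio of 2.30 (1.91 to 2.72) that was called in all 14 settings. After thinning it was found in 52.6% of C-myc D/D Cd4 cells and in 13.1% of C-myc fl/fl cells. Il4ra stood at 4.61, 13.4, 31.6 and 10.6 CPM against 47.6 and 44.8 CPM, without overlap, and rose 2.83-fold (1.50, 0.55 to 2.63; 14 of 14 settings). It was scarce, with 12 transcripts in the C-myc fl/fl gate and 33 in the C-myc D/D Cd4 gate. For C-myc fl/fl libraries 1, 2 and 4, 3 transcripts equalled 13.8, 13.4 and 31.8 CPM, so their Il4ra levels lay at or below that limit.

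The chains Il2rb and Il2rg of the IL-2 and IL-15 receptors were close between these CD122+T-bet- gates, with intervals that include equal levels. Both gates were sorted as CD122+, so the sort limits how far Il2rb could differ. The study reported a lower CD122 protein signal in CD122+T-bet- cells without C-myc, by flow cytometry. That result came from older C-myc D/D Cd4 mice, which it does not describe as carrying the TBGR reporter. Il2ra stood at 17.2 CPM in the C-myc fl/fl mouse and at 23.7 CPM in the C-myc D/D Cd4 mouse (0.45, -0.66 to 1.63), and Il15ra was too scarce to test. Il2rb stood at 223 CPM in the C-myc fl/fl mouse and at 222 CPM in the C-myc D/D Cd4 mouse (log2 ratio -0.01, -0.33 to 0.31), and Il2rg at 498 and 490 CPM (-0.02, -0.24 to 0.19). Il7r stood at 70.0 and 72.6 CPM (0.05, -0.53 to 0.63). Ifngr1 (0.84) and Il21r (0.74) were higher in both C-myc D/D Cd4 libraries than in every C-myc fl/fl library but under 2-fold, except that Ifngr1 was called without C-myc fl/fl library 3 (1.28). The agonist-selected list of 5 genes summed to 2515 CPM (2201 to 2761) against 1229 CPM (636 to 1601), with no gene at 0, and the B cell list of 5 genes ran from 15.9 to 202 CPM between the C-myc D/D Cd4 libraries. Also without overlap, the regulatory T cell list of 6 genes summed to 276 CPM (273 to 279) against 132 CPM (46.1 to 194), the gamma-delta list to 1122 CPM (1090 to 1162) against 500.3 CPM (221 to 940.4) and the double positive list to 135 CPM (132 to 139.7) against 43.6 CPM (10.6 to 59.9). In the regulatory T cell list, 1 of 5 genes tested was called higher, Tnfrsf18, and Foxp3 was not called. The part of these lists in the Il6st and Il4ra differences was not tested.

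Within the C-myc D/D Cd4 mouse, from CD122- to CD122+T-bet- cells, Il6st and Il2rg rose beside the sort marker Il2rb. Of 8 members tested, 3 were called higher, where 13.4% of 7425 genes were, and none lower, where 7.84% were. Il6st stood at 80.3 and 124 CPM in CD122- libraries and at 295 and 515 CPM in CD122+T-bet- libraries (log2 ratio 1.96, 1.61 to 2.34), a call made in all 12 settings. Il2rg stood at 221 and 225 CPM against 454 and 518 CPM and rose 2.19-fold (1.13, 0.86 to 1.41; called in 10 of 12 settings, 0.89 to 1.21). The libraries did not overlap for either gene. Ifngr1 was lower in both CD122+T-bet- libraries, at 133 and 124.5 CPM against 187 and 159 CPM, under 2-fold (-0.40). Il2ra stood at 23.4 and 68.6 CPM against 22.2 and 24.9 CPM, and was called lower without CD122- library 1 (-1.51) or CD122+T-bet- library 2 (-1.12). Between these gates the DN2 and DN3 list went from 482 to 34.9 CPM, the double positive list from 705 to 135 CPM and the agonist-selected list from 688 to 2515 CPM, with no overlap of libraries. Their part was not tested, and gate and library cannot be told apart in this mouse.

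**Figure D3:**
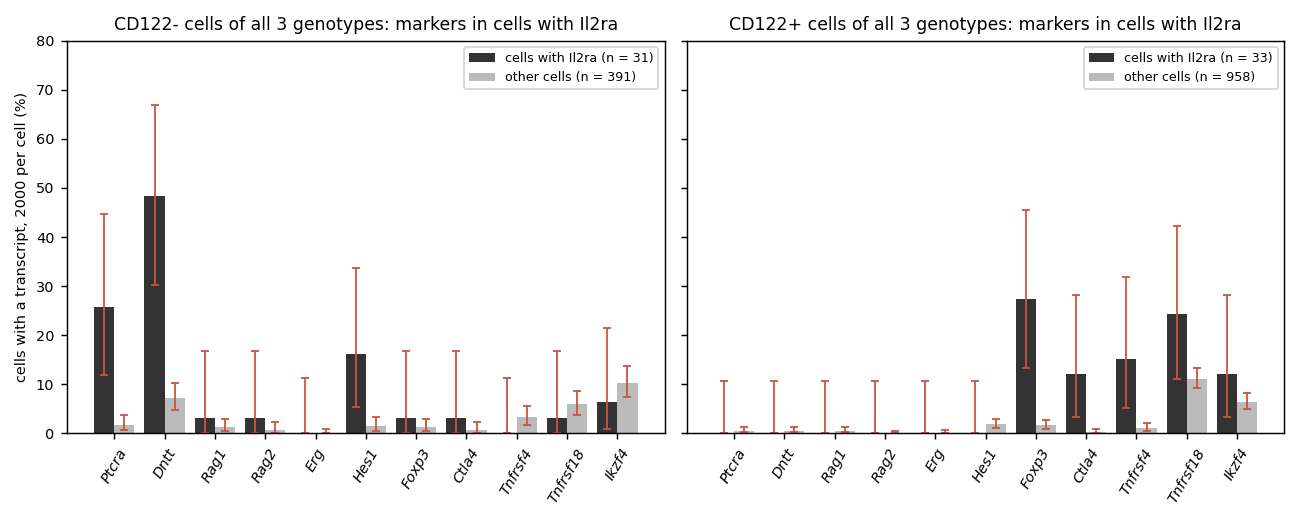
Share of cells (vertical axis, percent after thinning each cell to 2000 transcripts) in which each of 11 marker genes was found, in cells with and without Il2ra, for the CD122- and CD122+ gates; bars have exact 95% counting intervals. In the Il2ra cells of the CD122- gate, Ptcra was found in 25.8%, Dntt in 48.4%, and Rag1 and Rag2 in 3.23% each. Foxp3 was found in 27.3% of those of the CD122+ gates.

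The 64 cells with an Il2ra transcript fell into both kinds of gate and carried different markers in each. In the CD122- gates they were 31 of 422 cells, with 80 of the 146 transcripts, and 29 of the 31 came from the 2-week-old mice. Ptcra, the surrogate alpha chain of the pre-T cell receptor, was found after thinning in 25.8% of them (11.9 to 44.6) and in 1.79% of the other CD122- cells. Dntt, which adds bases at receptor gene joints, was found in 48.4% and 7.16%, and Hes1, a Notch target, in 16.1% and 1.53%. Other genes of the DN2 and DN3 list were rare in both groups of cells after thinning. Rag1 was found in 3.23% and 1.28%, Rag2 in 3.23% and 0.767%, and Erg in 0% of either. The Il2ra cells of this gate were deeper, with a median of 12780 transcripts against 4916, which is why thinned shares are given; unthinned, Ptcra was found in 54.8% and 3.84%. The thinned shares of Foxp3 were 3.23% and 1.28%. The other cells pool the 4-week-old and 2-week-old mice. In the 2-week-old mice alone, Ptcra was found unthinned in 17 of 29 Il2ra cells and in 13 of 219 others.

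In the CD122+ gates, Il2ra cells were 33 of 991 cells with 66 transcripts, at median depths of 6166 and 5703.5 transcripts. Foxp3, the regulatory T cell factor, was found after thinning in 27.3% of them (13.3 to 45.5) and in 1.67% of the others. The regulatory T cell genes Ctla4 (12.1% and 0.313%), Tnfrsf4 (15.2% and 1.15%) and Tnfrsf18 (24.2% and 11.2%) showed these shares in Il2ra cells and in the others, and Ptcra was found in 0 of the 33 cells, an exact interval that reaches 10.6%. Cells were chosen here by their Il2ra transcripts, so the shares describe these 64 cells and were not tested.

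**Figure D4:**
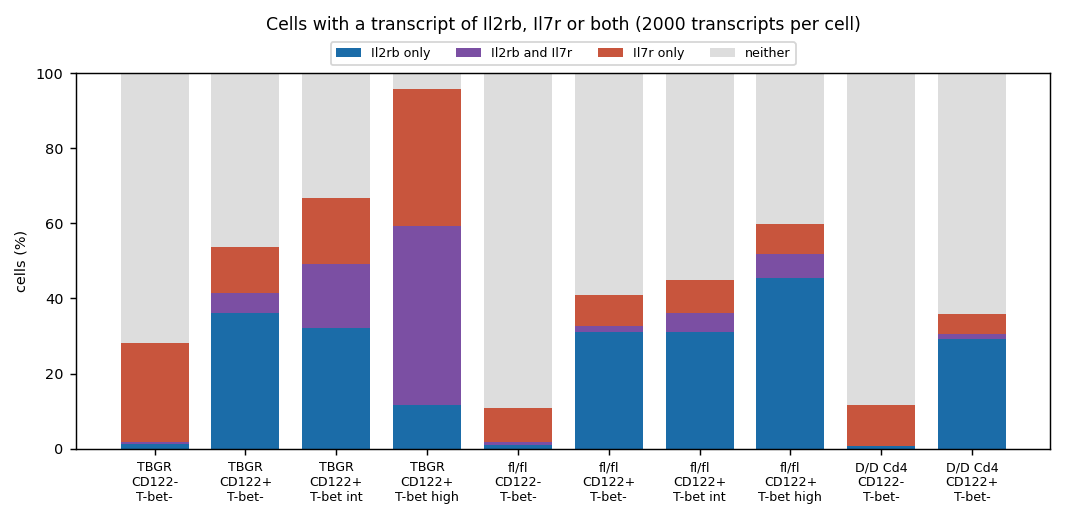
Share of cells (vertical axis, percent after thinning) with Il2rb only, Il7r only, both or neither, in the 10 mouse-by-gate groups (horizontal axis). Cells with both make up 47.6% of the TBGR T-bet high gate and 0 to 17.0% of the other groups.

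Il2rb and Il7r transcripts were next counted in the same cells. In the TBGR mouse, both were found after thinning in 0.575% of CD122-, 5.38% of CD122+T-bet-, 17.0% of T-bet int and 47.6% of T-bet high cells. The product of the separate shares was 7.34%, 16.9% and 49.9% in the 3 CD122+ gates. Cells with both genes were thus about as common as the separate shares give. Cells with Il2rb alone went from 36.0% of CD122+T-bet- to 11.6% of T-bet high cells. In the C-myc fl/fl mouse both genes were found in 6.25% of T-bet high cells.

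The mean number of the 7 common gamma chain family genes found per thinned TBGR cell was 1.39, 1.66, 1.80 and 2.45 from CD122- to T-bet high. At least 2 of them were found in 40.8%, 53.2%, 60.2% and 83.7% of cells. The C-myc fl/fl means were 0.717, 1.16, 1.17 and 1.50 in the same order, and the C-myc D/D Cd4 means were 0.617 and 1.28 for CD122- and CD122+T-bet- cells. Il2rb, the sort marker, is among the genes counted.

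Over the 28 sums of transcripts by library and gate, the genes whose log2(CPM + 10) followed each member most closely were described by Pearson's r, among 8141 genes with at least 100 transcripts. The sums share mice, libraries and depth, so no p is given. Il2rb was followed by Prr13 (0.95), S100a10 (0.94) and Fcer1g (0.93), the last a signalling adaptor of receptors on innate-like cells. Il7r was followed by Ube2v1 (0.86), Ptpn7 (0.86) and Fth1 (0.85), and Il6st by Nr4a1 (0.86), the gene of Nur77 that T cell receptor signals induce, by Smc4 (0.85) and by Cldn10 (0.84). Il2ra went with Myb (0.73), Aqp11 (0.70) and Cd24a (0.70), and Il4ra with Cd2 (0.92), Dgka (0.82) and Fam53b (0.82). Il2rg went with Cd53 (0.88), Flna (0.86) and Arhgef18 (0.85). Il21r went with Pnrc1 (0.83) and Wbp1l (0.83), and Ifngr1 with B4galt1 (0.77), Chsy1 (0.76) and Serinc3 (0.74). Of each 3 genes, at most 1 was also among the top 3 over the 10 gate sums. Between members, r was highest for Il4ra and Il21r (0.72) and for Il2rb and Il2rg (0.64), and lowest for Il2rg and Il2ra (-0.56).

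The genes around these receptors were taken from 5 lists, chosen with results of these data known: 9 ligands, 23 other cytokine receptors, 11 JAK and STAT genes, 11 feedback and target genes, and 11 transcription factors known to act on Il2rb or Il7r. Among ligands, Il15 gave 3 transcripts and Il7 gave 7 in all passing cells. At the CD122 step in the TBGR mouse, where 14.3% of all genes tested were called higher and 3.92% lower, 4 of 10 feedback and target genes were called higher and 0 lower, with a list median log2 ratio of 0.33 against 0.26 for all genes tested. They were Cish (1.74) and Socs3 (1.74), inhibitors induced by STAT proteins, and the kinases Pim2 (1.41) and Pim1 (1.16). Of 14 other receptors, 4 were called higher and 1 lower (median 0.27), among them Il18r1 (3.39), Il1r1 (3.16) and, lower, Il6ra (-1.64). Of 11 JAK and STAT genes 1 was called higher (Stat3, 1.11; median 0.07) and of 9 factors 1 was (Runx3, 1.16; median 0.55). The only ligand tested was not called (0.93).

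From CD122+T-bet- to T-bet int cells, where 3.49% of all genes tested were called higher and 6.94% lower, 3 feedback genes fell, Cish (-1.53), Socs2 (-1.12) and Socs3 (-1.11), and 1 rose, Sh2b3 (1.09), of 11 tested (median -0.23, against -0.02 for all genes). Of 14 other receptors 1 was called higher, Il18rap (2.35), and 2 lower, Ifngr2 (-2.30) and Il1r1 (-1.97), with a median of 0.19. Tbx21, which the reporter gate selects, rose by 4.83, while Gfi1 (-1.63) and Myb (-1.20) fell, of 10 factors (median -0.01). Of 2 ligands Il4 was called higher (2.87; median 1.12), and none of 11 JAK and STAT genes was called (median -0.18).

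From T-bet int to T-bet high cells, where 7.93% of all genes tested were called higher and 11.7% lower, 5 of 11 other receptors were called higher and 0 lower, with a median of 0.87 against -0.09 for all genes tested. They included Il18rap (2.38), Il12rb1 (1.55) and Il18r1 (1.52), chains of the IL-18 and IL-12 receptors, and Crlf2 (1.51). Of 3 ligands, Ifng (3.27) and Il2 (1.34) were called higher (median 1.34). Of 11 feedback genes, Socs2 (3.79), Cish (2.36) and Socs1 (1.96) rose and Pim2 (-2.00) fell (median 0.20). Stat5a (-1.31) was the JAK or STAT gene called, lower, of 11 tested (median 0.80). Of 10 factors, Tbx21 rose (1.77) and Myb (-2.66) and Foxo1 (-1.21) fell (median -0.07).

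In the C-myc fl/fl mouse the shares of all genes called were lower too, at 5.39% higher and 0.928% lower for the CD122 step, 0.562% and 0.506% for the T-bet int step and 1.36% and 2.58% for the T-bet high step. Its gates have 4 libraries each against 2 in the TBGR mouse, so the no-overlap rule was harder to meet. Shares and counts of calls are therefore not comparable between the mice. From CD122- to CD122+T-bet- cells, 1 of 8 feedback genes (Pim2, 2.42; median 1.24) and 3 of 9 factors (Zbtb16 2.86, Gabpa 1.56 and Runx3 1.49; median 0.07) were called higher, 1 of 8 other receptors was called lower (Ifngr2, -1.32; median -0.00), and none of 7 JAK and STAT genes was called (median 0.55). From CD122+T-bet- to T-bet int cells, Il18r1 (1.99) was the sole call, among 11 other receptors (median 0.23), while 9 JAK and STAT genes (0.19), 9 feedback genes (-0.43) and 9 factors (0.16) gave none. From T-bet int to T-bet high cells, Ifng (3.06), Il18rap (3.02; 10 receptors, median 0.37), Stat4 (1.92) and Stat2 (1.44; 10 genes, median 0.38) and Tbx21 (1.65) were called higher and Myb (-1.83) lower (9 factors, median -0.23), and none of 10 feedback genes was called (median 0.03). The medians over all genes tested were 0.48, 0.03 and -0.18 for these 3 steps.

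In the C-myc D/D Cd4 mouse, 9 of 10 feedback and target genes were called higher in CD122+T-bet- than in CD122- cells and 0 lower (median 1.88 against 0.13 for all genes tested, of which 13.4% were called higher and 7.84% lower), led by Pim2 (3.80), Socs2 (2.71), Cish (2.57) and the survival gene Bcl2 (2.24). Of 11 JAK and STAT genes 6 were called higher (median 1.07), among them Jak3 (1.89), the kinase that binds the common gamma chain. Of 10 other receptors 5 were called higher (median 1.58), led by Il10rb (3.80) and Ifngr2 (1.90), and of 9 factors 2, Runx3 (2.39) and Foxo1 (2.10), with a median of 0.27.

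Compared with the C-myc fl/fl mouse, where 13.5% of all genes tested were called higher and 6.13% lower, CD122+T-bet- cells of the C-myc D/D Cd4 mouse had 4 of 11 feedback genes called higher (Socs2 2.70, Cish 1.91, Bcl2 1.74 and Pim2 1.60; median 0.91 against 0.18 for all genes), 5 of 11 JAK and STAT genes (median 1.18; Stat4 2.84 and Stat6 2.06 led) and 6 of 10 other receptors (median 1.32; Ifngr2 2.42 and Tgfbr2 1.76 led). Of 9 factors 4 were called higher (median 0.79; Myb 1.60 led) and Zbtb16 was called lower (-1.21). In CD122- cells, where 12.9% of all genes were called higher and 1.0% lower, 0 of 6 feedback genes were called (median 0.57 against 0.45 for all genes), 1 of 10 JAK and STAT genes was called higher (Stat4, 3.05; median 0.55), as were 3 of 7 other receptors (median 1.05; Tgfbr2, 1.60, led) and 3 of 8 factors (median 0.81; Gabpa, 1.42, led).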

How the data were processed

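CEL-Seq2 libraries of 96 thymocytes each (20 libraries) were sequenced by the authors on Illumina HiSeq instruments. Per the labels and the study's methods, reads were demultiplexed with bcl2fastq 2.17.1.14, aligned with BWA 0.6.2-r126 to GENCODE VM9 mouse transcripts on the sense strand, multi-mapping reads were discarded and 6-base molecular identifiers were counted. The deposited values are estimated counts of transcripts, corrected by the authors for identifiers drawn more than once, and were rounded to whole numbers here. Genes named mt- or ERCC- were left out, cells with at least 2000 transcripts were kept, a limit of 2% Kcnq1ot1 removed 0 cells, and no doublet caller was run because cells were sorted singly.

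Transcripts were summed per library and gate, and given as CPM with exact Poisson limits. Shares had Clopper-Pearson limits and ratios exact conditional binomial limits, all at 95%. With no animals named in the labels, each genotype was treated as 1 sample and no p-value was computed. A gene was called with at least 20 transcripts in the groups together, a log2 ratio of at least 1 after adding 0.5 transcripts, and no overlap of libraries. All 9 members were named in every gate. Of each list at most 4 called genes with the largest ratios were named. Members and lists (5 gene lists and the markers of other cell types) were chosen with earlier results of these data known. The marker lists gave 34.1 to 729 CPM for double positive thymocytes (8 genes), 44.3 to 276 CPM for regulatory T cells (6 genes), 38.3 to 231 CPM for myeloid and dendritic cells (5 genes) and, for the coreceptors gated out (3 genes), 668, 102, 121 and 48.2 CPM along the TBGR gates. Alternatives were other depth limits, thinning, means over cells, median-of-ratios scaling, unrounded values, mitochondrial genes in the totals, no transcript minimum, a log2 limit of 0.58 and leaving out each library. The 2% Kcnq1ot1 limit was also counted as an alternative. It removed 0 cells, so it left every value and call unchanged. Barcodes without a cell were not used. Python 3.11.15, numpy 2.4.6, pandas 2.3.3, scipy 1.17.1 and matplotlib 3.10.9 were used.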

Additional observations from a re-analysis of the deposited data

Results flagged for a closer look

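Gaps between libraries could be checked in the C-myc fl/fl mouse alone, whose gates have 4 libraries. In 5 of 36 groups a library stood far from the other 3. Chance gives such a gap in about 1 in 20 groups of continuous values, a rate that does not apply to groups with a few transcripts. Il2rg stood at 567 CPM in CD122+T-bet- library 1 and at 741 CPM in T-bet high library 1. Ifngr1 stood at 193 CPM in T-bet int library 3. Il2ra stood at 3.35 CPM in T-bet int library 2, which was 1 transcript, and Il15ra at 10.1 CPM in T-bet high library 1, which was 2 transcripts. Both genes were at 0 in the other 3 libraries, so a gap was certain with any transcript.

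Transcripts of the members were also found in 1920 barcodes that held no cell and that no comparison used, above the limit of 3 that a count of 0 allows: 53 of Il2rg, 11 of Il2rb, 10 of Il21r, 9 of Il7r, 6 of Il6st, 6 of Ifngr1 and 4 of Il4ra. These barcodes held 51080 transcripts in all, a median of 17.5 each.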

How the results depend on the processing

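Of 874 alternative values of 68 log2 ratios of members, 831 moved by less than 1 SD between libraries and 42 moved by more (17 on leaving out a library). Changes of sign were counted for called members only. There was 1, that of Ifngr1 at the CD122 step in the TBGR mouse, -0.19 with every cell thinned. Ratios that were not called could also change sign, and these are not counted apart. No paired test was made, since no test was made at all. The numbers of libraries from different sorts mark no shared animal or batch in the labels. C-myc fl/fl gates sorted together were compared within libraries, but the call rule did not use this pairing. Counts of called members moved as follows. In the TBGR mouse, members called higher from CD122- to CD122+T-bet- numbered 1 with thinning or median-of-ratios scaling; from CD122+T-bet- to T-bet int, 1 higher with thinning, means over cells or a limit of 0.58, and 0 lower with thinning, 1 with means over cells and 4 at 0.58; from T-bet int to T-bet high, 1 higher with cells of at least 3000 transcripts, thinning or means over cells. In the C-myc fl/fl mouse, 2 were higher at the CD122 step with at least 3000 transcripts or a limit of 0.58, and 1 at the T-bet high step with median-of-ratios scaling. In the C-myc D/D Cd4 mouse 1 was lower with cells of at least 1000 transcripts. Against the C-myc fl/fl mouse, 1 was higher in CD122- cells with at least 3000 transcripts, thinning or median-of-ratios scaling, and 4 in CD122+T-bet- cells at 0.58. The causes were not tested. Leaving out 1 library at a time gave, in the TBGR mouse, 1 to 3 higher, then 0 to 1 higher and 1 to 3 lower, then 2 to 3 higher; in the C-myc fl/fl mouse 1 to 2 higher, then 0 to 1 higher and 0 to 1 lower, then 0 to 2 higher; in the C-myc D/D Cd4 mouse 0 to 1 lower; and between these mice 1 to 3 higher in CD122- and 2 to 3 higher in CD122+T-bet- cells. Without C-myc fl/fl library 2 or with means over cells Il21r was called higher in CD122- cells (1.09 and 1.25), without library 3 Il7r was (1.07), and without library 2 Il2ra was in CD122+T-bet- cells (1.24). The scarce members, Il15ra above all, were limited by depth.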
